A study of Apeltes quadracus with 85 samples.

Results

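The flanks of the HOXDB cluster on chromosome 6 were examined as all single-nucleotide sites listed between 15000000 and 17000000 of the contig chr06, with the HOXDB window from 16017516 to 16031519 left out. This rule took 3197 of the 513939 sites listed in the series, 922 to the left of the window and 2275 to its right, and the window itself held 67 sites. The first flank site lay at 15072294 and the last at 16796585, which was also the last site listed on chr06, so the right flank ended before the limit of the rule. The sites were read in 6 classes of distance from the nearer edge of the window. The left flank had 62 sites under 50 kb, 101 from 50 to 250 kb and 759 at 250 kb or more, and the right flank had 65, 279 and 1931. The question was whether the cis-regulatory difference of HOXDB in dorsal spines extends to the neighbouring transcribed sequence.

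RNA-seq was done on 85 libraries of 11 fry of the four-spine stickleback Apeltes quadracus from the Louisbourg population, which carried a pair of unlike HOXDB haplotypes in 3 combinations: 4 H/L fish, 3 H/LHR fish and 4 L/LHR fish. In the study's association mapping, the marker genotypes of H went with high spine number and those of L with low spine number. LHR was a recombinant of L and H. Each fish gave up to 8 tissues at the fin fold stage (stage 31). The spines are named by their order from the head, DS1, DS2, DS3 and DS4, with DSL for the last one, Pter is a pterygiophore (a supporting bone) that bears no spine, DF stands for dorsal fin, and AF, from the anal fin, is the control. DS4 libraries came from 8 fish (4 H/L, 3 H/LHR and 1 L/LHR) and those of each other tissue from 11. The fry came from in vitro fertilization, were raised at 16 °C in 10% seawater and measured 11 to 13 mm. Fish of a genotype may be siblings, so p-values measure only the spread between these fish. No fish in these libraries was homozygous for a HOXDB haplotype.

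Hox genes encode transcription factors that give segments of the body axis their identity, and the posterior members of a cluster are used in the rear part of the axis and in appendages. Hox clusters are regulated in part from outside: in the mouse, enhancers in the gene-poor regions on both sides of HoxD act on the Hox genes, and some of them also act on the neighbouring genes. In the related Gasterosteus the HOXDB cluster lies between LUNAPARK-B, whose mammalian counterpart shapes the tubule network of the endoplasmic reticulum, and MTX2, a component of the mitochondrial outer membrane. A regulatory variant in cis shows itself in a heterozygous fish as unequal reads of the alleles in the tissue in which it acts, because both alleles share the same nucleus. No gene annotation of the Apeltes assembly was used here, so sites and windows of 10 kb are named by their position.

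The study scored PCR markers along the cluster for association mapping, and the primers of those outside the HOXDB window that lie nearest to each edge or farthest out are shown because they fix the place of the flanks in this assembly, which orders linked-read scaffolds along the Gasterosteus chromosomes. Each is given 5′ to 3′ without any universal tail, and F and R are the forward and reverse primer. Marker 1 began at 16001880 of chr06, 15.6 kb to the left of the HOXDB window, and marker 4 at 16017003, 0.513 kb to the left. Marker 10 began at 16035683, 4.16 kb to the right, and marker 12 at 16052463, 20.9 kb to the right.
Marker 1 F: gccaactgagagacctcacc
Marker 1 R: acgctcgagatccagaaagc
Marker 4 F: gcccaaacgtttgaggaacc
Marker 4 R: aaatctgctttgctgccagc
Marker 10 F: tttcttatgtccggcgtggg
Marker 10 R: ggctctgtgaaaacacaccg
Marker 12 F: tcctctccgactagtagcagg
Marker 12 R: gtaaaaggagaaacgacgcgg

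The libraries held 2.15 to 46.6 M allele-counted reads (M, mega), with a median of 35.2 M, and 6 libraries held under 10 M. A read counts at every listed site it covers. The flanks took 0.442% to 0.696% of the reads of a library (median 0.553%), at 937 to 2812 of their sites. One 10 kb window, 15430000 to 15439999, took 59.4% of all flank reads. The DS3 library of L/LHR replicate 2 had 5.0 M reads, and the values that moved most with it are also given without it. All intervals of shares are exact 95% binomial intervals (Clopper-Pearson), and they cover counting error only, since reads of PCR-amplified libraries are not independent molecules.

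Heterozygosity in the flanks of these fish differed by genotype and by distance from HOXDB, and the differences between classes of distance were not tested. A site was callable in a fish with at least 20 reads summed over its tissues, and heterozygous when the minor allele had at least 10% of them. To the right of HOXDB within 50 kb, 3.94% ± 0.306 of callable sites were heterozygous in H/L fish (SD, n = 4), 35.8% ± 1.21 in H/LHR fish (n = 3) and 39.5% ± 1.52 in L/LHR fish (n = 4). Within 50 kb to the left, the values were 6.72% ± 0.115 (H/L), 16.7% ± 1.12 (H/LHR) and 23.4% ± 1.80 (L/LHR). On both sides, the fish without LHR thus had the fewest heterozygous sites next to the cluster, and the ranges of the 3 genotypes did not overlap. At 250 kb or more to the right the order was another: 16.0% ± 1.11 in H/L fish, 4.71% ± 0.76 in H/LHR fish and 16.2% ± 0.223 in L/LHR fish, so that the fish without L had the fewest. Over the whole flank, H/L fish had 13.5% ± 1.48, H/LHR fish 6.80% ± 0.456 and L/LHR fish 13.9% ± 0.243.

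Of 21 comparisons between genotypes (6 classes and the whole flank), 12 reached the smallest p that the exact permutation test gave, 0.0286, and an adjusted p of 0.05 (Benjamini-Hochberg over the 21), which is at and not below the threshold. All 6 comparisons within 50 kb, and the comparisons of H/LHR with either other genotype at 250 kb or more to the right, were among these 12. Between 50 and 250 kb to the right the genotypes had 19.1% ± 0.54 (H/L), 19.3% ± 0.264 (H/LHR) and 19.7% ± 1.30 (L/LHR), and their ranges overlapped. Within that class the bins of 50 kb were far from even. At 100 to 150 kb the means were 35.5% (H/L), 37.9% (H/LHR) and 36.2% (L/LHR), whereas at 200 to 250 kb they were 2.86%, 20.0% and 15.7% in the same order of genotypes. At 300 to 350 kb the means were 39.8% in H/L fish, 3.06% in H/LHR fish and 40.9% in L/LHR fish.

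**Figure D1:**
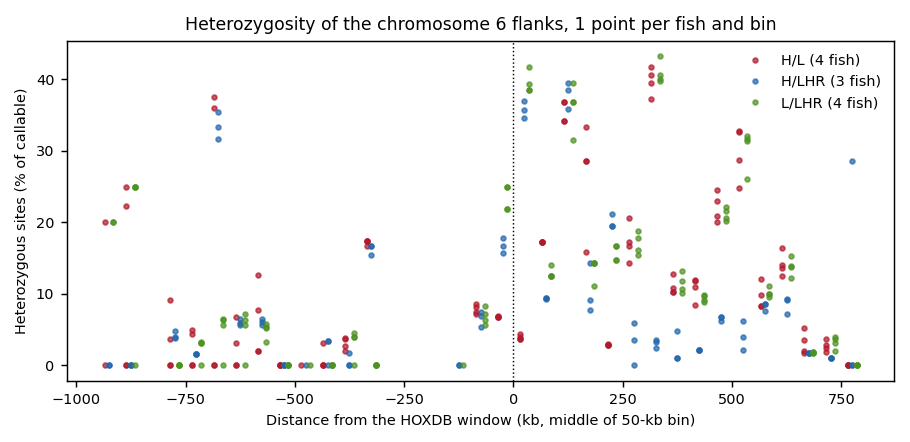
Heterozygous share of callable sites (%, vertical axis) in bins of 50 kb by distance from the HOXDB window (kb, negative to the left; dotted line, the window), with 1 point per fish and bin of at least 5 callable sites and colours for H/L, H/LHR and L/LHR; points are shifted sideways by genotype. The H/LHR fish sit between 2.35% and 3.57% at 300 to 350 kb to the right, while the H/L and L/LHR fish sit between 37.3% and 43.2%.

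Against the rest of the genome, where 10.5% ± 0.334 of callable sites were heterozygous (n = 11), the class from 50 to 250 kb to the right had 19.4% ± 0.838 and was higher in 11 of 11 fish (exact sign-flip permutation test, adjusted p = 0.00228 over 7 comparisons). The left flank was lower in 11 of 11 fish both at 250 kb or more (4.78% ± 2.74) and from 50 to 250 kb (6.85% ± 1.1), each at an adjusted p of 0.00228 in the same exact test. The result from 50 to 250 kb to the left depended on the reads: it was -1.11 points with at least 50 reads (exact test, adjusted p = 0.253), and with AF libraries alone it turned to 2.20 points above the rest and passed (exact test, adjusted p = 0.0232). The right flank within 50 kb had 25.5% ± 17.2 and was higher in 7 of 11 fish, namely those that carry LHR (exact test, adjusted p = 0.0308). It no longer passed when any 1 of these 7 fish was left out (13.4 to 14.2 points above the rest). The whole flank, with 11.8% ± 3.35, was higher in 8 of 11 fish and did not pass (adjusted p = 0.245, exact test). Fish of a genotype gave nearly the same values close to HOXDB: from 50 to 100 kb to the right each H/L fish had 17.2%. The 11 fish are thus not 11 independent units. P-values over fish, here and between the genotypes, measure only the spread between these fish and not how unusual the region is. The left flank at 250 kb or more also differed among fish of 1 genotype. Between 650 and 700 kb to the left, H/L replicates 2 and 3 had 37.5% and 36% heterozygous sites while H/L replicates 1 and 4 had 0%, and the 3 H/LHR fish had 31.7% to 35.5%. The 4 L/LHR fish had 0% to 6.45% there.

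Sites at which 1 haplotype carries an allele of its own tie the flanks to the HOXDB genotype. Such a tagging site was heterozygous in every callable carrier of a haplotype and homozygous for 1 allele in every callable fish without it. In the flanks 156 of 1809 sites callable for this purpose were tagging (8.62%), against 0.0490% of 261179 in the rest of the genome and 18 of 38 in the HOXDB window. Of the 156, 125 marked L, 21 marked LHR and 10 marked H. The 122 sites to the right that marked L ran from 12 kb to 735 kb, at 16043501 to 16766235, and all 115 tagging sites at 250 kb or more to the right marked L. The sites that marked LHR ran from 9.83 to 66.3 kb on the left and from 16.4 to 222 kb on the right, and those that marked H from 67.5 to 347 kb on the left and from 80.1 to 221 kb on the right. Within 50 kb of HOXDB on either side, 14 sites marked LHR, 3 marked L and none marked H. Fish of each genotype were homozygous at most callable sites there, and H/L fish had the smallest share of heterozygous ones. The calls rest on transcribed sites only, and an allele without expression in all tissues would be read as homozygous.

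The allele ratio of the flanks in DS3 was set against that in AF at each site heterozygous in every fish of a genotype. Across the flanks 420 tests were made, 173 (H/L), 82 (H/LHR) and 165 (L/LHR), and the edgeR quasi-likelihood test found none at an FDR of 0.05 (Benjamini-Hochberg over all sites of the genome). Of these tests, 134 (H/L), 31 (H/LHR) and 119 (L/LHR) lay at 250 kb or more to the right. Within 50 kb, H/L fish had 2 on the left and no tested site on the right. H/LHR fish had 5 on the left and 9 on the right, and L/LHR fish 4 and 10. The counts over the flanks thus rest on few sites next to HOXDB. At an unadjusted p below 0.05 there were 12 of the 420. Over the genome the same test called 0.0121% of sites (H/L), 0% (H/LHR) and 0.0155% (L/LHR), so it called few single sites anywhere. On simulated data it found 0% to 2% of changes of log2 1 and 16% to 30% of log2 2. It found 46% to 84% of log2 3 and 70% to 88% of log2 4. The spread in that simulation was assumed and not estimated from these libraries, so the recovery in the real data is not known. The lack of calls in the flanks thus cannot decide about changes of log2 1 or 2. Nor can it decide about larger ones, since the same test missed large changes in the HOXDB window. These included 5.32 at 16020516 in H/L fish and 4.41 at 16029269 in H/LHR fish (edgeR adjusted p = 0.17 and 0.898). With a block for the fish, edgeR called 1.19% (H/L), 1.23% (H/LHR) and 1.16% (L/LHR) of the genome's sites and again 0 of 420 in the flanks, with 22 at an unadjusted p below 0.05. In the HOXDB window edgeR without the block and DESeq2 called 0 sites in each genotype, as they did in the flanks. The blocked fit called 2 of 6 HOXDB sites (H/L), 4 of 9 (H/LHR) and 0 of 8 (L/LHR). With 1 fish left out these blocked counts were 0 to 1 in H/L fish (0 without replicate 3 or replicate 4) and 1 to 3 in H/LHR fish (1 without replicate 1). Without replicate 2 of L/LHR fish, 187 flank sites were tested in that genotype and edgeR without the block called 0. With all L/LHR fish that test called 0.0155% of the genome's sites. The genome's share in the refit is not given here, so this count was not read as a result about the flanks.

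The sizes of the changes were unlike as well. The median size of the log2 change of the allele ratio, without its sign, was 0.30 over the flank sites of H/L fish, against 2.16 in the HOXDB window. It was 0.44 against 3.43 in H/LHR fish and 0.31 against 0.90 in L/LHR fish. The flank sites were the deeper ones: their median was 118 reads in DS3 (H/L), 101 (H/LHR) and 102 (L/LHR), against 41, 44 and 75.5 reads at the HOXDB sites. A change without its sign grows with counting noise, so these medians of size were not compared at equal depth. Few of these flank sites lay within 50 kb of HOXDB, and neighbouring sites share reads. In H/L fish the flank sites tested lay in 38 windows of 10 kb and the HOXDB sites in 1 window. The largest flank changes, picked out after their values were seen, were 3.72 at 16112052 in H/L fish (56 reads of the reference allele and 0 of the other in DS3, against 82 and 8 in AF; edgeR adjusted p = 0.734) and 3.62 at 16392574 in H/LHR fish (26 and 0 in DS3, against 50 and 8 in AF; edgeR adjusted p = 1).

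**Figure D2:**
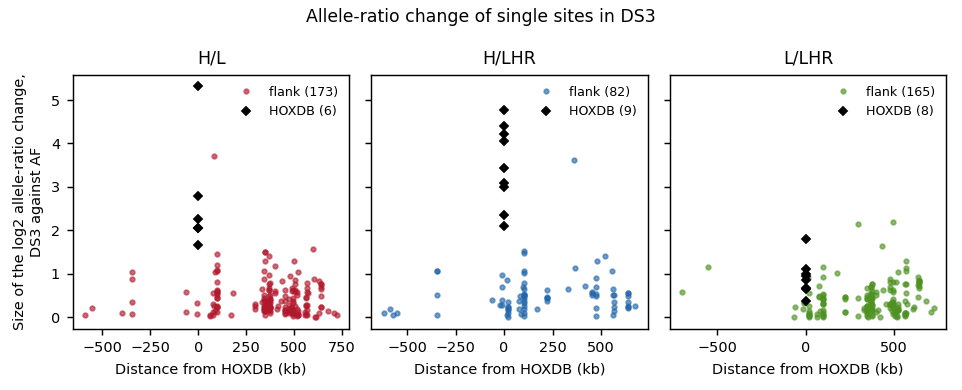
Size of the log2 allele-ratio change in DS3 against AF (vertical axis, sign dropped, edgeR) of single sites by distance from the HOXDB window (kb), with 1 panel per genotype, coloured points for flank sites and black diamonds for sites of the HOXDB window. In H/L and H/LHR fish most flank sites sit low, with medians of 0.30 and 0.44, and the HOXDB sites sit above them, with medians of 2.16 and 3.43.

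Fisher's exact test on reads summed over the fish, which ignores the spread between fish, called 5.41% of the genome's sites (H/L), 3.33% (H/LHR) and 6.14% (L/LHR), against 1 of 173, 1 of 82 and 2 of 165 flank sites. These 4 sites were picked out by their p. At 16131975, 100 kb to the right, the reference allele had 77 of 107 reads in DS3 of H/L fish (72.0%), against 96 of 202 in AF (47.5%; edgeR adjusted p = 0.528). The per-fish counts of reference and other allele in DS3 were 33 and 6, 23 and 14, 8 and 6, and 13 and 4, against 26 and 28, 27 and 22, 19 and 25, and 24 and 31 in AF. The reference share was thus higher in DS3 in each of these 4 fish. In DS2 the reference allele had 73 reads and the other 36 (67.0%), which the same exact test also called (adjusted p = 0.0244; edgeR adjusted p = 0.608). The H/LHR site was 16509273, at 478 kb (58.9% reference reads in DS3 against 36% in AF; edgeR adjusted p = 1). The L/LHR sites were 16462459 and 16523411, at 431 and 492 kb, where the reference share was 58% and 17.6% in DS3, against 30.8% and 50% in AF, so the shares moved in opposite directions. Within single fish, Fisher's exact test called 0.823% of the genome's tests and 2 of 1886 flank tests: 16362364 in H/LHR replicate 1, with 12 and 36 reads in DS3 against 58 and 42 in AF (exact test, adjusted p = 0.0436), and 16672712 in L/LHR replicate 3, with 56 and 8 reads in DS3 against 30 and 23 in AF (exact test, adjusted p = 0.0367).

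Because 1 site holds few reads, the tagging sites were also summed by haplotype, using the deepest site of each 10 kb window. In the HOXDB window 1 site served per genotype, 16028519 in H/L fish and 16029269 in H/LHR fish. The study assigns 16028519 to HOXD9B, and the site that it assigns to HOXD11B, 16020516, did not enter. At the sites used, the log2 ratio of H to the other haplotype changed by -3.34 ± 1.36 in DS3 against AF (SD, 7 fish with H). This ratio was lower in 7 of 7 fish. In H/L replicates 1 to 4 the reads of H and L in DS3 were 2 and 14, 3 and 12, 0 and 22, and 2 and 21, against 18 and 24, 16 and 20, 19 and 23, and 16 and 25 in AF. In H/LHR replicates 1 to 3 the reads of H and LHR in DS3 were 0 and 19, 1 and 28, and 1 and 22, against 7 and 11, 8 and 13, and 9 and 10 in AF. H was low in DS3 in each of these fish, and its share in DS3 did not overlap that in AF.

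The flank classes changed by less on average, but within 50 kb single fish overlapped the HOXDB range of -5.22 to -1.52. There the fish ran from -1.82 to 0.33 on the left and from -2.32 to 1.93 on the right. In the left flank the mean change in DS3 was -0.24 ± 0.47 at 250 kb or more, -0.14 ± 0.60 from 50 to 250 kb and -0.47 ± 0.77 within 50 kb (SD, n = 7 fish with H). In the right flank it was -0.02 ± 1.26 within 50 kb and 0.14 ± 0.13 from 50 to 250 kb. At 250 kb or more to the right only the 4 H/L fish were informative, with -0.0048 ± 0.058 over 25 sites. None of the 6 passed the exact sign-flip test after adjustment (adjusted p = 0.281 to 0.938), and the smallest unadjusted p, 0.0469 from 50 to 250 kb to the right, belonged to a change towards H. The smallest p that 7 fish allow is 0.0156, and 4 fish cannot go below 0.125.

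**Figure D3:**
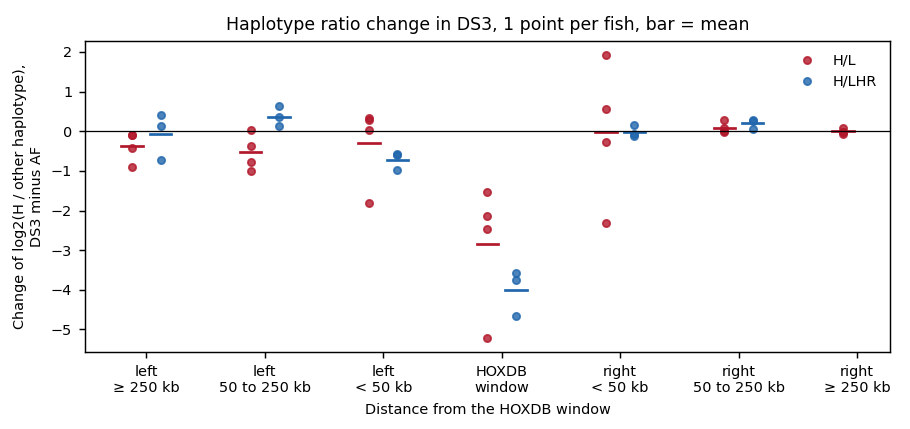
Change of the log2 ratio of H to the other haplotype in DS3 minus AF (vertical axis) by class of distance from left to right across the HOXDB window, with 1 point per fish (H/L and H/LHR) and a bar at the mean of a genotype. In the HOXDB window all 7 fish lie between -5.22 and -1.52, and in the right flank from 50 to 250 kb they lie between -0.02 and 0.28. Within 50 kb they lie between -1.82 and 0.33 on the left and between -2.32 and 1.93 on the right, and so overlap the HOXDB window.

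The difference between HOXDB, at its 1 site per genotype, and its flanks was tested in the same fish. HOXDB minus flank was -3.09 at 250 kb or more to the left, -3.20 from 50 to 250 kb to the left, -2.86 within 50 kb to the left and -3.48 from 50 to 250 kb to the right, each negative in 7 of 7 fish (exact sign-flip permutation test, adjusted p = 0.0234 over 6 classes). Within 50 kb to the right it was -3.32 and negative in 6 of 7 fish (exact test, adjusted p = 0.0375), and with any 1 of these 6 fish left out it no longer passed (exact test, adjusted p = 0.075). At 250 kb or more to the right it was -2.83 and negative in 4 of 4 fish, where the exact test cannot go below 0.125. The lone exception within 50 kb to the right was H/L replicate 1, whose DS3 value there rests on 1 read of H and 4 of L. These tests share the HOXDB value of each fish and are not independent of each other. The study had already reported lower H expression at HOXDB in DS3 of H/L and H/LHR fish. That side of each difference was thus known beforehand, and the tests are no new support for the change at HOXDB.

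Both nearer classes on the left were also read by genotype. In H/LHR fish the H share within 50 kb to the left was 47.7% in DS3 (38.8% to 56.7%), against 59.5% in AF (51.4% to 67.2%), and the log2 ratio was lower in DS3 in 3 of 3 fish (-0.58, -0.99 and -0.59). In the 7 other tissues of H/LHR fish the share ran from 46.0% to 53.9%, so AF was the highest of the 8 tissues. In H/L fish the H share of the same class was 53.4% in DS3 (47.2% to 59.6%), against 55.3% in AF (50.1% to 60.5%). The fish changed by 0.33, 0.04, 0.29 and -1.82. From 50 to 250 kb to the left, at 1 site, the H share of H/L fish was 48.8% in DS3 (42.8% to 54.8%), against 59.7% in AF (55.0% to 64.3%), again the highest of the 8 tissues, and it was lower in DS3 in 3 of 4 fish. In H/LHR fish this class had 11 reads of H and 13 of LHR in DS3, against 10 and 16 in AF. Within 50 kb to the left, the change in H/L minus that in H/LHR fish was 0.43 (exact permutation test, adjusted p = 0.651 over 6 comparisons), and none of the 6 comparisons, HOXDB included, passed (smallest adjusted p = 0.343 in the exact test, for -0.53 in H/L and 0.37 in H/LHR fish from 50 to 250 kb to the left).

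The 3 tagging sites nearest to HOXDB on the left show these reads one by one. At 16011697, 5.82 kb away, H had 55 and L 42 reads in DS3 of H/L fish (56.7%, 46.3% to 66.7%), against 73 and 58 in AF (55.7%). The edgeR change of log2(H/L) was 0.06 (adjusted p = 1). At 16008966, 8.55 kb away, H had 85 and L 80 reads in DS3, against 130 and 106 in AF (change -0.33, edgeR adjusted p = 1). The counts of replicate 4 at that site were 4 and 17 in DS3, against 29 and 23 in AF, and without this fish the change was 0.07. At 16007689, 9.83 kb away, H had 52 and LHR 49 reads in DS3 of H/LHR fish (51.5%), against 85 and 40 in AF (68.0%, 59.1% to 76.1%), a change of -0.97 (edgeR adjusted p = 1). In DS3 the counts of H and LHR by fish were 15 and 9, 18 and 18, and 19 and 22, against 18 and 7, 28 and 15, and 39 and 18 in AF, so the H share was lower in DS3 in 3 of 3 fish. In L/LHR fish the same site had 69 reads of L and 49 of LHR in DS3, against 78 and 78 in AF (change 0.34, edgeR adjusted p = 1).

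On the right the nearest tagging sites were 16043501 (12 kb), 16047893 (16.4 kb) and 16048499 (17 kb). At 16043501, which marks L, H had 9 and L 18 reads in DS3 of H/L fish (33.3%, 16.5% to 54.0%), against 11 and 25 in AF (30.6%, 16.3% to 48.1%), and it had too few reads for the scan of H/L fish. At 16047893 H had 34 and LHR 35 reads in DS3 of H/LHR fish (49.3%), against 68 and 43 in AF (61.3%; change -0.84, edgeR adjusted p = 1). At 16048499 H had 42 and LHR 35 reads in DS3 (54.5%), against 77 and 70 in AF (52.4%; change 0.05, edgeR adjusted p = 1). These sites lie 0.606 kb apart, and the H share was lower in DS3 at the first and slightly higher at the second.

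In L/LHR fish the change of log2(L/LHR) in DS3 ranged over the 5 informative classes between means of -0.09 and -0.03 (n = 4, adjusted p = 1 in each exact sign-flip test, which cannot go below 0.125 before adjustment). Without replicate 2, which had 3 reads in DS3 in each of the left classes, the means were 0.02 from 50 to 250 kb to the left, 0.29 within 50 kb to the left, -0.19 within 50 kb to the right, -0.16 from 50 to 250 kb to the right and -0.0023 at 250 kb or more to the right. In the HOXDB window of L/LHR fish the change was -1.68 ± 2.25 with replicate 2, which had 5 reads there, and -0.61 ± 0.86 without it. The L share at 250 kb or more to the right was 51.5% in DS3 (49.7% to 53.3%), against 52.0% in AF (50.7% to 53.3%).

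The other tissues were compared with AF in the same way. In 17 further scans (DS1, DS2, DS4, Pter, DSL and DF by genotype), edgeR called 0 of 2440 flank tests, against 0.0592% over the genome, with 63 at an unadjusted p below 0.05. The blocked fit called 0, against 0.96% over the genome, with 91 below 0.05. Fisher's exact test on summed reads called 19, against 4.47% over the genome. By haplotype, the mean change in fish with H ranged from -0.70 to 0.90 over 36 tests, and the smallest adjusted p was 0.656 (exact sign-flip test). In the class within 50 kb to the left the mean change was below 0 in each of the 6 other tissues, from -0.53 to -0.20, all set against the same AF libraries. Over all tissues the 30 tests in L/LHR fish gave means of -0.21 to 0.48 and a smallest adjusted p of 0.568 (exact test).

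The depth of a class set how narrow its shares were. At 250 kb or more to the right, with 2665 to 7378 reads per tissue, the H share of H/L fish stayed between 46.4% and 48.4% in all 8 tissues. From 50 to 250 kb to the right it stayed between 49.7% and 52.8%, on 1224 to 2853 reads. Within 50 kb to the right, on the single site 16043501 with 11 to 65 reads, it ran from 27.3% in DS2 to 61.9% in DS1, so a moderate change was not detectable there in H/L fish at this depth. In H/LHR fish, on 267 to 405 reads at 2 sites, the H share in the 8 tissues was between 51.1% and 56.0%. In the HOXDB window the H share of H/L fish was 9.21% in DS3 and 28.0% in DS4, against 42.9% in AF, and that of H/LHR fish was 2.82% and 34.3%, against 41.4%.

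**Figure D4:**
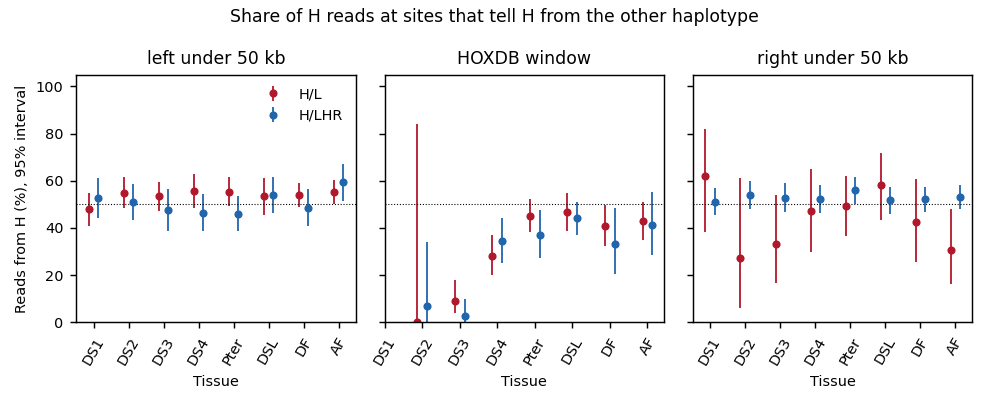
Share of reads from H (%, vertical axis) at tagging sites by tissue, with AF last, in H/L and H/LHR fish, for the left flank within 50 kb, the HOXDB window and the right flank within 50 kb; bars are exact 95% intervals, tissues without reads have no point, and the dotted line is at 50%. In DS3 the HOXDB window sits at 9.21% and 2.82%, while the left flank sits at 53.4% and 47.7% and the right flank of H/LHR fish at 52.8%. The right flank of H/L fish sits at 33.3% in DS3 on 9 reads of H and 18 of L, against 30.6% in AF.

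The read level of the flanks, without regard to allele, was followed in windows of 10 kb. Sites were found in 137 windows, of which 117 passed the filter on low counts and were tested against AF with edgeR. The main fit pooled the fish of all genotypes under a term for tissue only, without terms for genotype or fish. Its level changes thus cannot show a difference between haplotypes. Levels are RPM, reads per M of allele-counted reads, after TMM scaling, a scaling that sets the typical window to no change. Fewer cells of a type and less RNA per cell cannot be told apart in these tissues. The HOXDB window had 5.53 to 43.3 RPM in DS3 (median 15.4), against 7.4 to 15.8 RPM in AF (median 12.2), and its level ranges overlapped. With 1 fish left out its change in DS3 was 0.32 (without L/LHR replicate 2) to 0.64, and it passed without H/L replicate 2 (0.62, edgeR adjusted p = 0.0437). Its log2 change was -6.60 in DS1, -2.97 in DS2, 0.52 in DS3 (edgeR adjusted p = 0.114), 1.30 in DS4, 1.13 in Pter, 1.92 in DSL and -0.05 in DF. DS4 of 8 fish, only 1 of them L/LHR, was set against AF of all 11 fish without a term for the fish. Level changes in DS4 can thus mix tissue with fish and genotype.

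The windows on either side did not follow this course. The adjoining window from 16010000 to 16017515 had 3.22 to 10.7 RPM in DS3 (median 7.48), against 5.15 to 9.44 RPM in AF (median 7.01), a log2 change of 0.01 ± 0.17 (SE; edgeR adjusted p = 0.973). In DS1, where HOXDB was lower by 6.60, its change was 0.14, and in DSL it was 0.20. The next window, from 16000000, had 5.26 to 12.1 RPM in DS3 (median 10.6), against 5.52 to 9.75 RPM in AF (median 8.36), and its level rose by 0.36 ± 0.12 (edgeR adjusted p = 0.0151). With total reads as library size that change was 0.025, without L/LHR replicate 4 it was 0.31, and neither passed. With the deepest site of the window alone it was 0.43 and did not pass either (edgeR adjusted p = 0.0918). The window from 15990000 had at most 0.543 RPM in DS3, against at most 0.425 RPM in AF (change 0.39 ± 0.28, edgeR adjusted p = 0.341).

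To the right, the window from 16040000, 8.48 kb away, had 10.1 to 16.3 RPM in DS3 (median 13.3), against 8.82 to 16.2 RPM in AF (median 13.5), a change of 0.06 ± 0.11 (edgeR adjusted p = 0.747). The windows from 16050000 and 16070000 changed by 0.04 ± 0.14 and 0.15 ± 0.25 in DS3 (edgeR adjusted p = 0.897 and 0.739). Over DS1 to DF the changes of these 6 nearest windows ran from -0.29 to 1.31, and in Pter all 3 windows on the left and that from 16040000 rose. The window from 16000000 also rose in DS1 (0.33), DS2 (0.40) and DS4 (0.49; edgeR adjusted p = 0.0419, 0.0069 and 0.00231). With the fish block it rose in DSL as well, and the windows from 16040000 and 16050000 rose in DS4 (edgeR adjusted p = 0.0114, 0.00191 and 0.0315). Over the 8 tissue means, no window of the flanks had a Pearson's r above 0.9 with HOXDB. The r of windows elsewhere in the genome is not given here, so these values were not ranked against it. For this comparison alone, RPM was taken without TMM scaling. Among 92 windows with a mean of at least 1 such RPM, Pearson's r on the scale of log2(RPM + 0.5) ran from -0.82 to 0.60 with a median of -0.04. The highest were 16040000 (0.60), 15290000 (0.45), 16050000 (0.42), 16370000 (0.37) and 15430000 (0.36), and tissue means share the depth and the scaling of their libraries.

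**Figure D5:**
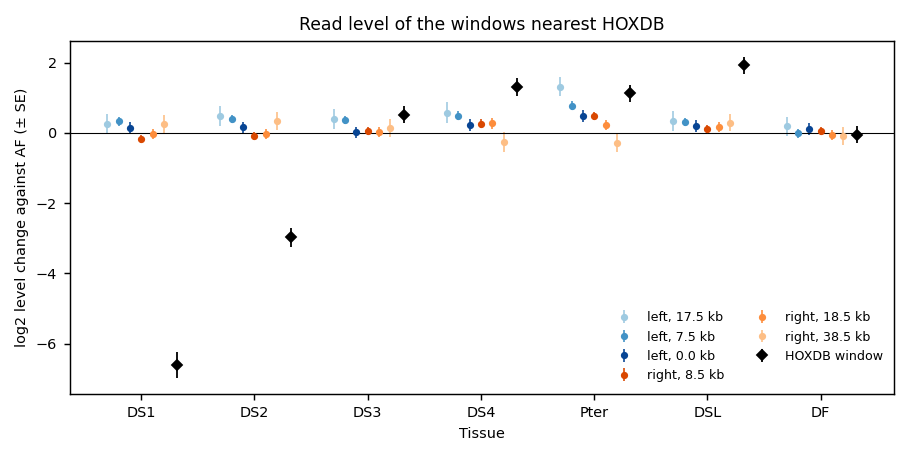
log2 level change against AF (vertical axis, ± SE, edgeR with TMM) by tissue for the 3 windows nearest to the HOXDB window on each side, labelled by distance, and for the HOXDB window (black diamonds). HOXDB goes down to -6.60 in DS1 and up to 1.92 in DSL, while the 6 flank windows stay between -0.29 and 1.31.

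The share of windows with a changed level was read against that of the genome. In DS3, 27 of 117 windows passed (18 higher and 9 lower), against 25.2% of the genome's windows. The counts were 21 in DS1 (13 higher and 8 lower; genome 18.7%), 25 in DS2 (16 and 9; 23.2%), 24 in DS4 (14 and 10; 24.2%), 36 in Pter (23 and 13; 31%), 21 in DSL (15 and 6; 13.2%) and 0 in DF (0.314%). Without H/LHR replicate 2 the count in DSL was 13. In DF, DESeq2 called 0 as well. Of the 117 windows, 2 were higher (genome 2.71%) and 6 lower (4.45%) in DS1, DS2, DS3, DS4 and DSL alike, and 76 passed in none of these 5 (genome 63%). Without L/LHR replicate 2 the count in DS3 was 23 of 116. The genome's share in the fits with a fish left out is not given here. With the block for the fish, edgeR passed 37 in DS1 (genome 31.3%), 39 in DS2 (36%), 42 in DS3 (37.1%), 39 in DS4 (35.2%), 47 in Pter (44.4%), 30 in DSL (26.2%) and 0 in DF (0.614%).

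The balance of higher and lower windows rested on the scaling. TMM moved the level of a tissue against AF by 0.30 (DS1), 0.29 (DS2), 0.41 (DS3), 0.56 (DS4), 0.47 (Pter), 0.23 (DSL) and -0.05 (DF) on the log2 scale relative to library totals. With total reads as library size, chosen after the results were seen, the windows that passed were 4 higher and 32 lower in DS1 (29.2% of the genome's windows passed), 6 and 29 in DS2 (32.3%), 6 and 44 in DS3 (41.1%), 3 and 65 in DS4 (54.4%), 9 and 66 in Pter (56.7%), and 4 and 18 in DSL (19.7%). Directions of levels are therefore relative to the typical window of the genome.

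The largest changes in DS3 lay in the right flank, away from HOXDB. The window from 16180000, 148 kb away, had 0.128 to 0.84 RPM in DS3 (median 0.538), against 0.0343 to 0.372 RPM in AF (median 0.118), and rose by 1.73 ± 0.41 (edgeR adjusted p = 0.000777). It also rose in DS1, DS2 and DSL (2.28, 2.14 and 1.78). The window from 16100000, 68.5 kb away, had 10.0 to 28.3 RPM in DS3 (median 13.3), against 4.03 to 17.5 RPM in AF (median 5.76), and rose by 1.15 ± 0.22 (edgeR adjusted p = 3.53e-05). This window rose in DS1 to DS4 and in Pter. The window from 16490000, 458 kb away, rose by 1.06, but L/LHR replicate 3 alone had 65.5 RPM in DS3 where the next fish had 13.5 RPM, and without that fish the change was 0.46 (edgeR adjusted p = 0.0212). With the deepest site of the window alone it was 0.38 and did not pass (edgeR adjusted p = 0.0617).

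The 3 lowest windows were also on the right. The window from 16500000, 468 kb away, had 78.4 to 218 RPM in DS3 (median 103), against 178 to 307 RPM in AF (median 262), and fell by 1.07 ± 0.15 (edgeR adjusted p = 2.0e-08). The windows from 16330000 and 16510000 fell by 0.92 and 0.87 (edgeR adjusted p = 2.81e-08 and 2.07e-08). In these windows the level fell in all 6 dorsal tissues other than DF, and the windows from 16500000 and 16510000 adjoin each other. The highest flank window by level, from 15430000, had 2600 to 8934 RPM in DS3 (median 3202), against 2357 to 3700 RPM in AF (median 2685), and rose by 0.50 ± 0.13 (edgeR adjusted p = 0.00296). Without L/LHR replicate 2 its change was 0.26, with total reads as library size it was 0.011, and neither passed.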

How the data were processed

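Per the study's methods and the submitters' processing notes, the authors trimmed reads with Trim Galore and cutadapt 2.4, mapped them with STAR to their own Apeltes assembly, and used Picard 2.23.4, SAMtools 1.10 and GATK 4.1.4.1, whose ASEReadCounter gave the deposited counts. These are raw counts of reads of each allele at each listed site of 1 library, with no normalization. Any filter against mapping bias was not given in the sources used here, so a reference allele can be favoured in every tissue alike. Distances run along scaffolds joined by similarity to Gasterosteus.

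Members, classes and tests were chosen with earlier results of these data known. Marker positions and primers are those of the study's marker list. A scan took sites called heterozygous in each fish of a genotype in 1 tissue or more (at least 10 reads, at least 2 and 10% from the minor allele), with more than 12 reads per fish over both tissues and a minor share over 5%. The models of edgeR 4.0.16 (R 4.3.3) held a term per library, the allele and allele by tissue, with p-values adjusted over all sites of the genome. The block added allele by fish terms. Replicate numbers are fish in the labels, and deviations from the group means correlated at 0.225 to 0.544 between DS3 and AF of the same number, against -0.209 to 0.131 with the best other number. Single fish were tested by Fisher's exact test with at least 6 reads in each tissue. Haplotype ratios had 0.5 added to each count and were tested by exact sign flips over fish, two-sided. Windows were fitted with edgeR and TMM on summed reads of 10 kb, over the 22631 that passed filterByExpr. Alternatives included DESeq2 1.42.0, other filters, controls and pseudocounts, and each fish left out. Both edgeR models were tested on simulated data, with a spread that was assumed and not estimated from these libraries. Without the block, the allele model for DS3 found 0% to 2% of changes of log2 1 and 16% to 30% of log2 2. With the block it found 2% to 10% and 30% to 46%, so most changes of these sizes would be missed.

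Sites and windows were named by rule: on each side the 3 tagging sites and the 3 tested windows nearest to HOXDB, called sites, the 3 highest and 3 lowest called windows in DS3, and the 5 windows most like HOXDB. Others are said to be picked by their values. The rest was computed in Python 3.11.15 (scipy 1.17.1, numpy 2.4.6, pandas 2.3.3, and for the plots matplotlib 3.10.9).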

Additional observations from a re-analysis of the deposited data

Results flagged for a closer look

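Among 25 groups of 4 fish or more that were tested for an outlying fish, 3 had one, and chance alone flags about 1 group in 20. In the left flank at 250 kb or more, L/LHR replicate 1 had 0.806% heterozygous sites, apart from the other 3 L/LHR fish, which had 3.67% to 4.1%. In the left flank within 50 kb, H/L replicate 3 had 6.90% where the other 3 H/L fish each had 6.67%; all 4 had 2 heterozygous sites, and replicate 3 had 29 callable sites where the others had 30. In the same class the haplotype ratio of H/L replicate 4 changed by -1.82 in DS3, with 11 reads of H and 20 of L in DS3 against 52 and 26 in AF, while the other 3 fish changed by 0.04 to 0.33.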

How the results depend on the processing

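Counts of flank sites with a changed allele ratio stayed at 0 under the edgeR alternatives run, the replicate block included. DESeq2 and DF as control were run for DS3 only and also gave 0. In DS3 the main fit called only 0% to 0.0155% of the genome's sites, depending on the genotype. Apart from the block, the genome's share under these alternatives is not given here. These counts of 0 were thus not read as results about the flanks. Fisher's exact test on summed reads gave 1 (H/L), 1 (H/LHR) and 2 (L/LHR) sites in DS3, and 2, 4 and 13 in the other tissues. Within single fish it gave 2 sites, against 5 with at least 12 reads in each tissue, 0 at an FDR of 0.01, and 1 to 2 with a fish left out. With at least 12 reads it called 0.680% to 9.13% of the genome's tests, depending on the fish, and at an FDR of 0.01 it called 0.297% to 2.62%.

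The mean haplotype change in DS3 crossed 0, with no class past the threshold, in these cases: 0.012 within 50 kb to the right with 1 added to each count, 0.15 (250 kb or more) and 0.22 (50 to 250 kb) to the left with all tagging sites summed, 0.055 at 250 kb or more to the right against DF, and 0.37 from 50 to 250 kb to the left in H/LHR fish alone. With a fish left out it ran from -0.34 to 0.37 within 50 kb to the right and from -0.031 to 0.015 at 250 kb or more to the right. HOXDB minus flank stayed below 0 throughout. It no longer passed with 4 H/L fish alone (-2.46, -2.31, -2.55, -2.82 and -2.93 for the classes from left to right, up to 250 kb to the right), with 3 H/LHR fish alone (-3.94, -4.37, -3.29, -3.99 and -4.20), where too few fish remain for the exact test to pass, nor from 50 to 250 kb to the left with sites callable in all fish (-2.31, n = 4). Within 50 kb to the right it was -3.90 to -2.91 with a fish left out.

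Differences of heterozygosity between genotypes (percentage points) that changed sign were all among those that had not reached 0.05 or lay from 50 to 250 kb to the left. With at least 10 reads, H/L minus L/LHR was 0.611 (whole flank) and 0.886 (right, 250 kb or more), and from 50 to 250 kb to the left H/L minus H/LHR was -0.894 and H/LHR minus L/LHR 2.56. With at least 50 reads, H/L minus H/LHR was 0.0742 (left, 250 kb or more) and 0.208 (right, 50 to 250 kb). With a minor share of 5%, H/LHR minus L/LHR was 0.139 (left, 50 to 250 kb), and at 50 to 250 kb to the right H/L was higher by 3.52 than H/LHR and by 2.14 than L/LHR; with 20%, H/L minus H/LHR was 1.26 there. With AF alone, H/L minus H/LHR was 0.252 (left, 250 kb or more) and 2.92 (right, 50 to 250 kb), and H/L minus L/LHR -0.208 (left, 50 to 250 kb). With a fish left out, H/L minus L/LHR ran from -0.994 to 0.195 (whole flank) and from -0.581 to 0.297 (right, 250 kb or more), and H/L minus H/LHR from -2.13 to 0.527 (left, 250 kb or more) and from -0.362 to 0.0128 (right, 50 to 250 kb). Flank minus rest of the genome was -1.11 (left, 50 to 250 kb, no longer past the threshold) and 8.68 (left within 50 kb, now past it) with 50 reads, 12.9 (right within 50 kb, no longer past it) with a share of 5% and 7.05 (left within 50 kb, now past it) with 20%. With AF alone it was 3.38 (whole flank), 9.72 (left within 50 kb) and 2.20 (left, 50 to 250 kb, reversed and past the threshold). With a fish left out it was 4.05 to 5.94 (left within 50 kb) and 13.4 to 17.3 (right within 50 kb).

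The replicate block raised the number of changed windows to 37 (DS1), 39 (DS2), 42 (DS3) and 39 (DS4), and the allele change at 16047893 in L/LHR fish was -0.067 with the block. Total reads as library size, chosen after seeing the data, gave 36 (DS1), 50 (DS3), 68 (DS4) and 75 (Pter) windows, beside 29.2%, 41.1%, 54.4% and 56.7% of the genome's. Sites listed in every library gave 23 (Pter) and 9 (DSL), and the deepest site of each window 8 (DSL). Leaving out a fish gave 13 to 21 (DSL, 13 without H/LHR replicate 2). The genome's share under these settings is not given here, so these counts were not read as results about the flanks. In DS3, total reads turned 16010000 to -0.32, 16040000 to -0.31, 16050000 to -0.33, 16070000 to -0.20 and 16370000 to -0.046. The window from 15290000, which did not pass in DS3 in the main fit, changed by -0.67 with the block (edgeR adjusted p = 1.52e-05). It changed by -1.09 with total reads and by -0.81 without libraries under 10 M reads (edgeR adjusted p = 0.00323 and 0.0332). For 16010000 the block gave -0.015, the deepest site -0.072, sites in every library -0.00179 and a fish left out -0.084 to 0.10. For 16040000 the deepest site gave -0.011 and sites in every library -0.038, and for 16050000 these sites gave -0.017 and a fish left out -0.051 to 0.081. Against DF, 16008966 changed by 0.10 and 16047893 by -0.53 in L/LHR fish. With a fish left out, changes ran from -0.13 to 0.34 (16047893, L/LHR), -0.17 to 0.69 (16007689, L/LHR), -0.68 to 0.070 (16008966, H/L), -0.23 to 0.49 (16011697, H/L) and -0.16 to 0.38 (16048499, H/LHR). The causes were not tested. Depth limits the class from 50 to 250 kb to the left in H/LHR fish (8 to 28 reads per tissue) and that within 50 kb to the right in H/L fish (11 to 65).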

Other observations

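The site 16509273, 478 kb to the right of HOXDB, was picked out because it was called most often among the flank sites that passed Fisher's exact test on summed reads in several comparisons. In H/LHR fish its reference share was 54.1% in DS2, 58.9% in DS3, 60.4% in DS4 and 54.4% in DSL, against 36% in AF, and in L/LHR fish it was 69.4% in DS2 and 70.3% in Pter, against 44.8% in AF. The edgeR adjusted p was 1 in the first 4 comparisons and 0.648 and 0.847 in the other 2, all of which share their AF libraries within a genotype. By fish, the reference and other allele had 23 and 19, 18 and 12, and 25 and 15 reads in DS3 of H/LHR fish, against 25 and 23, 24 and 57, and 19 and 41 in AF. In H/L fish the change at this site in DS3 was 0.13 (edgeR adjusted p = 1). Other sites called in several tissues were 16131975 in H/L fish (DS2 and DS3), 16462459 in L/LHR fish (reference share 58% in DS3, 61.8% in Pter and 55.9% in DSL, against 30.8% in AF) and 16672712 in L/LHR fish (77.9% in DS2 and 74.9% in DSL, against 60.9% in AF).

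Sites outside the flanks and the HOXDB window also met the rule for tagging sites, at the much lower share given above for the rest of the genome. Of these sites, 58 lay in unplaced sequence and 26 on chr21. The numbers of callable sites there are not given here, so these counts cannot show an excess in either place. Whether such sites go with the HOXDB haplotypes or met the rule by chance was not tested.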
